A study of Mus musculus with 8 samples.

Results

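The genes described here are 39 genes of glutathione, thioredoxin and antioxidant metabolism, taken as a named list of gene symbols from the 31053 genes in the count table of brown adipose tissue (BAT). They were picked by name and no measured value enters the rule, but the list was chosen with earlier results of these data known. BAT of male C57BL6/J mice, aged 10 weeks by the labels, was profiled by bulk RNA-seq in 4 WT and 4 Ucp1Δ/Δ mice (ATGLKO in the sample names), with 1 mouse per library. In Ucp1Δ/Δ mice the floxed Pnpla2 gene, which encodes the triglyceride lipase ATGL, was deleted by a Cre recombinase under the Ucp1 promoter, so the deletion was aimed at thermogenic adipocytes and not at the other cells of the tissue. Which of these alleles the WT mice carried was not given in the sources used here. The comparison asked how the BAT transcriptome differed when this deletion was aimed at thermogenic adipocytes.

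The labels name both BAT and the stromal vascular fraction, the cells left once adipocytes are removed. Adipocyte markers were abundant in every library: Ucp1, Cidea, Cox8b, Dio2, Elovl3, Adipoq, Plin1 and Fabp4 summed to 13544 to 23359 CPM in WT and 9934 to 14811 CPM in Ucp1Δ/Δ mice (CPM, counts scaled to the usual common library size). Libraries held between 2017697 and 3115956 counts, and 3 counts corresponded to between 0.933 and 1.53 CPM, a floor that covers counting error only. Pnpla2 itself gave 2913 ± 191 CPM in WT mice and 474 ± 59.2 CPM in Ucp1Δ/Δ mice (SD, n = 4 each), a log2 fold change (log2FC) of -2.62 (SE 0.17, edgeR adjusted p = 1.97e-07). All fold changes below are Ucp1Δ/Δ against WT, and a gene was called where edgeR's quasi-likelihood test gave a p under 0.05 after Benjamini-Hochberg adjustment over all 8930 genes tested.

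Cells remove peroxides mainly through a pair of thiol systems. Glutathione is built from glutamate, cysteine and glycine, is spent by glutathione peroxidases and glutathione transferases, and is returned to its reduced form by glutathione reductase with NADPH. Thioredoxins, kept reduced by thioredoxin reductases, serve the peroxiredoxins, while superoxide dismutases feed both systems with hydrogen peroxide made from superoxide. Many of these genes are targets of NRF2 (Nfe2l2), a transcription factor held in the cytoplasm by KEAP1, which binds antioxidant response elements together with small MAF proteins. In BAT, where fuel oxidation is intense, mitochondrial superoxide and thiol oxidation are known to accompany thermogenesis.

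The letters of the antioxidant response element core were searched in RefSeq promoters (GRCm38.p6, 250 bases before to 50 bases after each start), as TGACNNNGC and TGAGNNNGC on both strands. Promoter entries matched 34 of the 39 genes, and Gclc, Gsr, Gsta4, Prdx6 and Sod3 had none. In the 250 bases before the start, a match was found in 15 of the 42 promoters of these genes (35.7%), and in 7560 of all 32851 promoters (23.0%). Those 15 promoters belonged to 14 genes: Gclm, Gsta3, Gstp1, Gstt1, Gstz1, Mgst1, Mt2, Nfe2l2, Prdx1, Slc7a11, Sod1, Srxn1, Txn2 and Txnrd1. Among the 7 called genes with an entry 4 had a match, and among the 27 other genes with an entry, uncalled or under the filter, 10 had one. The difference between these shares was not tested. A match says only that these letters are present. The stretches below are printed 5′ to 3′ on the strand of the gene, with the 9 matched bases in capitals and up to 20 bases on each side, first all of those for the called genes.
Srxn1, 158 bases before the start, chr2:152105346-152105394 (+): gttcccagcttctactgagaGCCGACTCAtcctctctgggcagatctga
Srxn1, 45 bases before the start, chr2:152105459-152105507 (+): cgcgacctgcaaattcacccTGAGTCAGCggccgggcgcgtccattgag
Gsta3, 121 bases before the start, chr1:21240444-21240492 (+): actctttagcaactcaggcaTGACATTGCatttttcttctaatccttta
Gstt1, 89 bases before the start, chr10:75797792-75797840 (-): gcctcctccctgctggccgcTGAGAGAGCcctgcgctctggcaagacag
Gstz1, 73 bases before the start, chr12:87147072-87147120 (+): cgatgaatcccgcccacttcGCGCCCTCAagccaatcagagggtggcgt
Gstz1, 184 bases before another start, chr12:87157399-87157447 (+): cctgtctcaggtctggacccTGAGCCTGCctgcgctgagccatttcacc
For comparison, these are 4 of the genes that were not called, or not tested. The matches of Sod1 and Txn2, and those of Nfe2l2, Mgst1, Mt2 and Gstp1, which lie in or beside annotated exons, are not printed:
Gclm, 134 bases before the start, chr3:122245403-122245451 (+): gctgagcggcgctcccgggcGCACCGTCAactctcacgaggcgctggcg
Prdx1, 133 bases before the start, chr4:116685446-116685494 (+): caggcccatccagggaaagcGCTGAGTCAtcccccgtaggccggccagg
Txnrd1, 92 bases before the start, chr10:82859094-82859142 (+): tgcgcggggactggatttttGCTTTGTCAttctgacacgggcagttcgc
Slc7a11, 97 bases before the start, chr3:50443682-50443730 (-): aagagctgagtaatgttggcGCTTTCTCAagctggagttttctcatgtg
The Prdx1 match and the nearer Srxn1 match overlap the letters TGANTCA, a motif of AP-1 factors. None of the printed stretches overlaps an annotated exon, and those of Gstt1 and Txnrd1 and the second of Gstz1 lie within the bounds of the annotated gene, the others before its start.

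Of the 39 genes, 36 passed the filter on low counts and were tested, and each of them reached the level of the filter in at least 1 mouse of each genotype. In Ucp1Δ/Δ mice 8 were higher (Gpx1, Gpx3, Gsta3, Gstm2, Gstt1, Prdx6, Srxn1 and Sod3), 2 were lower (Gsta4 and Gstz1), and 26 did not pass the test. Without WT mouse 3 only 3 were higher, and without Ucp1Δ/Δ mouse 1 or 2 there were 5. Without WT mouse 4 there were 5 lower, and without Ucp1Δ/Δ mouse 1 there were 4. Gpx1, Gpx3, Gsta4 and Gstz1 were called in every alternative fit run, whereas Gsta3 and Prdx6 each lost their call in 9, Gstt1 in 7, Gstm2 in 6, Srxn1 in 2 and Sod3 in 1. The called share was 27.8% against 21.0% of all genes tested. By direction, 22.2% of the antioxidant genes were higher against 13.3% of all genes, and 5.56% were lower against 7.63%. That larger share of higher genes was not seen without WT mouse 3. The median log2FC was 0.16 over the 36 genes and -0.0087 over all genes tested. The WT and Ucp1Δ/Δ mice did not overlap in CPM for 11 of the 36, and for 23.7% of all genes. Counts of all 39 genes together made up between 0.969% and 1.40% of each WT library and between 1.49% and 1.71% of each Ucp1Δ/Δ library, without overlap. Gpx3 alone supplied 27.8% to 38.5% of these counts in WT libraries and 41.7% to 50.6% in Ucp1Δ/Δ libraries.

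**Figure D1:**
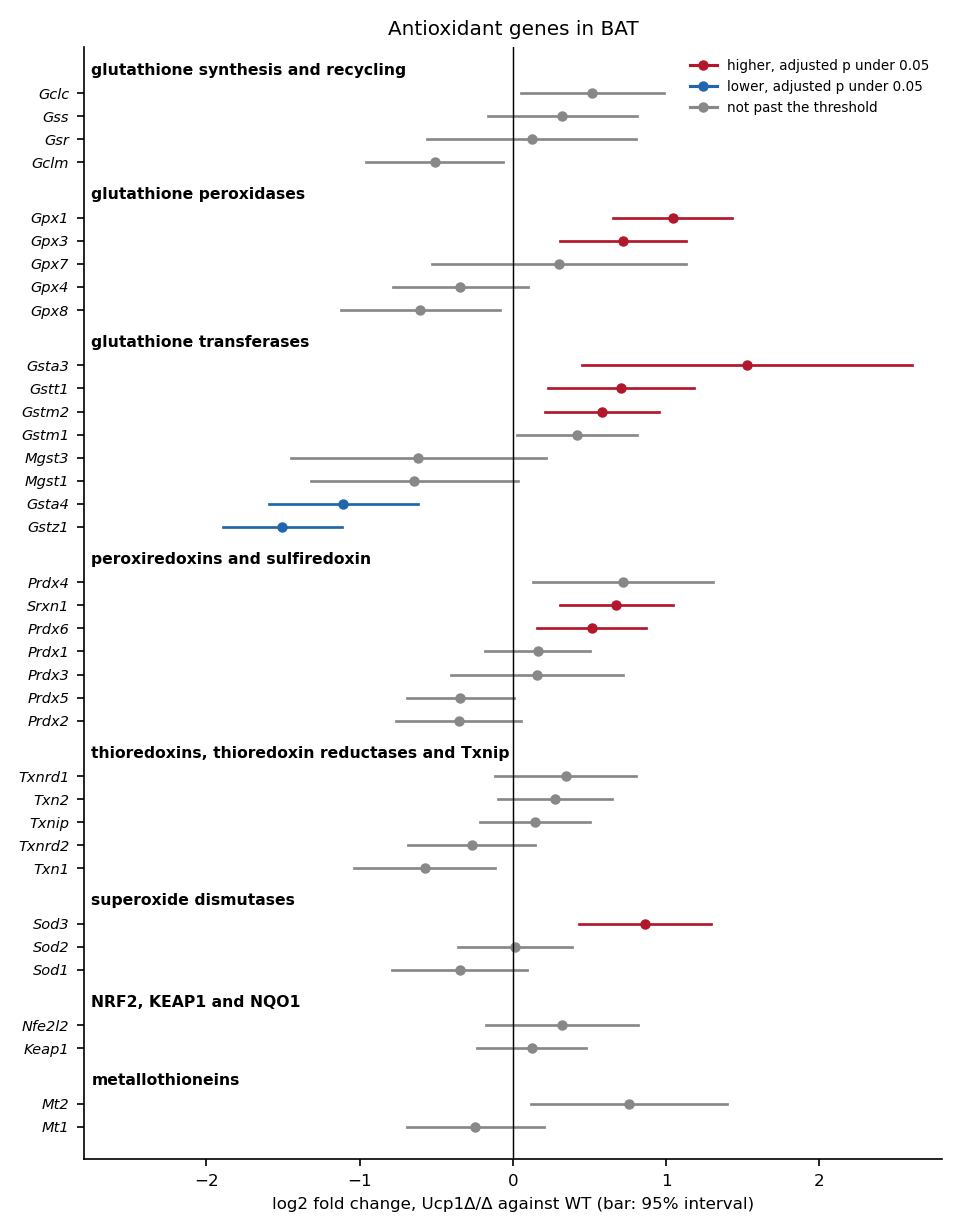
Log2 fold change of the 36 tested antioxidant genes, Ucp1Δ/Δ against WT (x axis), with 95% intervals as bars and genes grouped by role (y axis). The 8 higher genes are red and the 2 lower genes blue, both of these among the glutathione transferases, and the 26 grey genes did not pass the test.

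Other cell types moved with genotype. The 10 macrophage markers (Adgre1, Cd68, Csf1r, C1qa, C1qb, Lyz2, Mrc1, Fcgr1, Cd14 and Trem2) summed to 98.8 to 152 CPM in WT and 949 to 1547 CPM in Ucp1Δ/Δ mice, and all 8 that were tested were higher. Of these, Cd68 and Trem2 reached the level of the filter through Ucp1Δ/Δ mice alone. In WT mice 1 to 4 they had 4, 10, 5 and 6 counts and 0, 1, 0 and 0 counts, so their calls add little. The 6 fibroblast markers summed to 301 to 403 CPM in WT and 880 to 1585 CPM in Ucp1Δ/Δ mice, with 5 of 6 higher (Pi16 did not pass the test). Among the 8 brown adipocyte markers 4 were lower (Cidea, Elovl3, Adipoq and Plin1) and Dio2 was higher, while Ucp1 had a log2FC of -0.34 (edgeR adjusted p = 0.481). The 5 endothelial markers gave 133 to 170 CPM in WT and 185 to 202 CPM in Ucp1Δ/Δ mice, with 1 higher. Markers of T and B lymphocytes stayed at or under 3.18 CPM in sum and those of neutrophils at or under 6.27 CPM, with Cd79a at 0 in every library. The part of these cell types in the antioxidant genes was not tested. In bulk tissue, fewer cells of a type and less RNA per cell cannot be told apart.

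**Figure D2:**
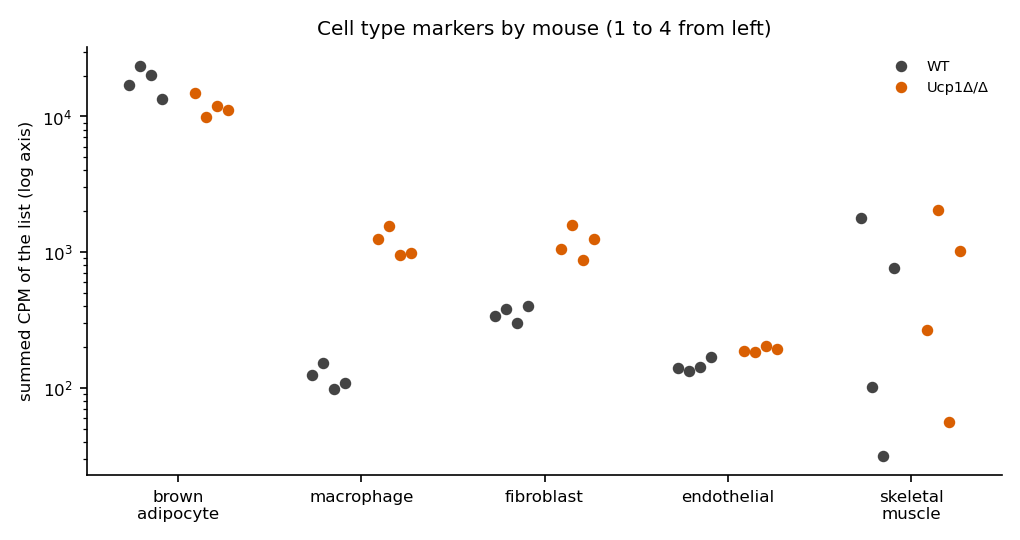
Summed CPM of the marker genes of 5 cell types (log axis), 1 point per mouse, mice 1 to 4 from left, WT in grey and Ucp1Δ/Δ in orange. Macrophage and fibroblast markers separate the genotypes, whereas skeletal muscle markers range from 31.7 to 2057 CPM across both.

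Skeletal muscle markers differed between mice within each genotype, at 1773, 102, 31.7 and 758 CPM in WT mice 1 to 4 and 265, 2057, 56.0 and 1022 CPM in Ucp1Δ/Δ mice 1 to 4. WT mice 1 and 4 and Ucp1Δ/Δ mice 2 and 4 were the highest. Without these 4 mice, which left 2 mice a genotype, 2 antioxidant genes were higher (Gpx1 and Gpx3) and 2 lower (Gsta4 and Gstz1). Of all 9295 genes then tested, 760 were higher and 265 lower, beside 1191 and 681 of 8930 with all 8 mice. Whether muscle or the smaller number of mice accounts for the lost calls was not tested. With the log2 marker sum as a covariate and all 8 mice, 8 were higher and 2 lower. Both settings were chosen after the values were seen.

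Glutathione peroxidases typically reduce peroxides at the expense of glutathione. Of the 5 listed genes of this family 2 rose (40%, against 13.3% of all genes). Gpx1 (chr9:108338903-108340343), the widespread cytosolic and mitochondrial selenoenzyme, gave 569, 646, 562 and 543 CPM in WT mice 1 to 4 and 1577, 1205, 1066 and 927 CPM in Ucp1Δ/Δ mice 1 to 4. The lowest Ucp1Δ/Δ mouse was above the highest WT mouse, and the Ucp1Δ/Δ mice spread far more widely. The means were 580 ± 45.2 and 1194 ± 280 CPM, a log2FC of 1.04 (SE 0.18, edgeR adjusted p = 6.75e-04).

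Gpx3 (chr11:54902453-54910377), the secreted peroxidase found in plasma, gave 5560, 3442, 4415 and 3658 CPM in WT mice and 7288, 5701, 7545 and 7556 CPM in Ucp1Δ/Δ mice. The groups came close only between WT mouse 1 and Ucp1Δ/Δ mouse 2. The means were 4268 ± 957 and 7022 ± 890 CPM (log2FC 0.72, SE 0.19, edgeR adjusted p = 0.0142). Gpx4, which reduces lipid hydroperoxides in membranes and guards against ferroptosis, had a log2FC of -0.34 (edgeR adjusted p = 0.273), although 29.8% of its 75-base stretches also occur in other transcripts, the pseudogene Gpx4-ps2 among them. Gpx7 and Gpx8, both of the endoplasmic reticulum, had log2FCs of 0.30 (edgeR adjusted p = 0.639) and -0.60 (edgeR adjusted p = 0.0956).

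Glutathione transferases conjugate glutathione to electrophiles, and this family moved in both directions: of 8 tested genes 3 rose and 2 fell. These were 37.5% and 25% of the family, against 13.3% and 7.63% of all genes tested. The largest fall was in Gstz1 (chr12:87147165-87164723), which isomerises maleylacetoacetate in tyrosine breakdown. It gave 293, 351, 252 and 228 CPM in WT mice and 112, 100, 81.1 and 103 CPM in Ucp1Δ/Δ mice, so every Ucp1Δ/Δ mouse was far below every WT mouse. The means were 281 ± 53.8 and 99.0 ± 13.0 CPM, 35.2% of the WT mean (log2FC -1.50, SE 0.18, edgeR adjusted p = 2.97e-05). Its exons overlap Pomt2 and Gm6566 on the other strand, which share 7.89% of its 75-base stretches, and whether the counting used strand was not given in the sources used here.

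Gsta4 (chr9:78182774-78209349), the transferase that clears 4-hydroxynonenal, an aldehyde of lipid peroxidation, gave 57.1, 75.3, 49.8 and 35.5 CPM in WT mice and 31.5, 20.5, 25.5 and 23.6 CPM in Ucp1Δ/Δ mice. The groups did not overlap, but WT mouse 4 and Ucp1Δ/Δ mouse 1 were close. The log2FC was -1.11 (SE 0.23, edgeR adjusted p = 0.00241). Another alpha-class gene, Gsta3 (chr1:21240589-21265661), went the other way from a low level, with 4.59, 4.48, 1.002 and 4.05 CPM in WT mice and 16.3, 12.8, 6.27 and 3.004 CPM in Ucp1Δ/Δ mice. Here the groups overlapped, since Ucp1Δ/Δ mouse 4 lay below 3 of the WT mice, and the log2FC of 1.53 had an SE of 0.51 (edgeR adjusted p = 0.0431).

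The mu-class gene Gstm2 (chr3:107981702-107986453) gave 35.0 to 54.6 CPM in WT and 59.2 to 65.8 CPM in Ucp1Δ/Δ mice (means 42.1 ± 8.601 and 62.9 ± 2.86 CPM, log2FC 0.58, SE 0.17, edgeR adjusted p = 0.0265). The theta-class gene Gstt1 (chr10:75783813-75798584) gave 17.8 ± 4.04 CPM in WT mice and 29.1 ± 5.58 CPM in Ucp1Δ/Δ mice (log2FC 0.70, SE 0.22, edgeR adjusted p = 0.0357). The closest mice were WT mouse 4 at 20.3 CPM and Ucp1Δ/Δ mouse 1 at 21.2 CPM. Gstm1 had a log2FC of 0.42 (edgeR adjusted p = 0.123) and shares 11.7% of its 75-base stretches with other genes, Gstm3 among them. The membrane-bound Mgst1 and Mgst3 had log2FCs of -0.64 (edgeR adjusted p = 0.174) and -0.62 (edgeR adjusted p = 0.299). Gstp1 was not tested, with 4, 8, 8 and 5 counts in WT mice and 14, 12, 8 and 9 counts in Ucp1Δ/Δ mice.

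**Figure D3:**
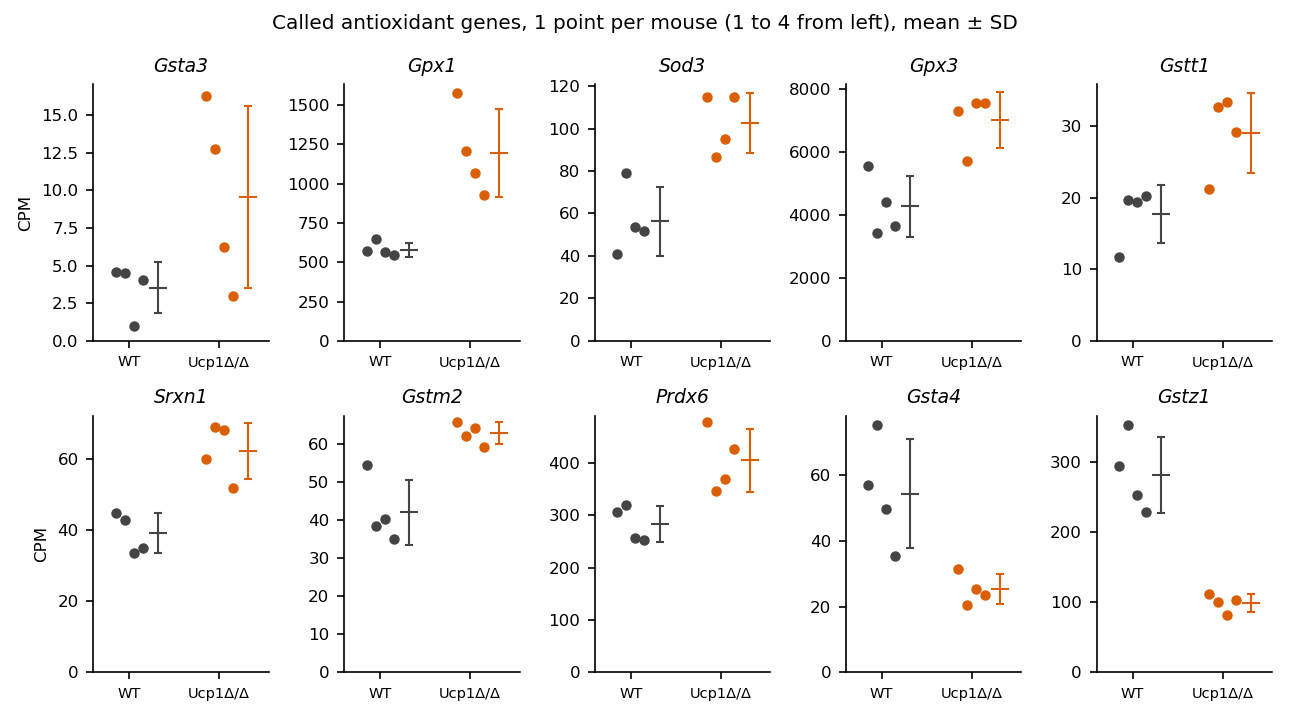
CPM of the 10 called antioxidant genes, 1 point per mouse (mice 1 to 4 from left) with the mean and SD beside each group, in order of log2FC, each y axis starting at 0. In 9 of the 10 panels the genotypes do not overlap, and Gsta3 is the exception.

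Peroxiredoxins take electrons from thioredoxin to reduce hydrogen peroxide, and sulfiredoxin repairs those that have been overoxidised. Of these 7 genes 2 rose (28.6%, against 13.3% of all genes). Srxn1 (chr2:152105516-152111376), sulfiredoxin itself and a classical NRF2 target, gave 44.9, 43.0, 33.7 and 35.0 CPM in WT mice and 60.1, 69.1, 68.1 and 51.9 CPM in Ucp1Δ/Δ mice. Every Ucp1Δ/Δ mouse was above every WT mouse (means 39.1 ± 5.62 and 62.3 ± 7.996 CPM, log2FC 0.67, SE 0.17, edgeR adjusted p = 0.0114). Prdx6 (chr1:161240112-161251219), the peroxiredoxin that uses glutathione instead of thioredoxin, gave 252 to 319 CPM in WT and 346 to 478 CPM in Ucp1Δ/Δ mice (means 283 ± 34.4 and 405 ± 59.5 CPM, log2FC 0.51, SE 0.17, edgeR adjusted p = 0.0395).

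Prdx4, the peroxiredoxin of the endoplasmic reticulum, had 5.10, 4.93, 5.34 and 4.56 CPM in WT mice and 8.14, 8.09, 10.0 and 6.87 CPM in Ucp1Δ/Δ mice. The groups did not overlap, yet the gene did not pass the test at this depth (log2FC 0.72, SE 0.28, edgeR adjusted p = 0.0782). The cytosolic Prdx1 and Prdx2 had log2FCs of 0.16 (edgeR adjusted p = 0.538) and -0.35 (edgeR adjusted p = 0.219), the mitochondrial Prdx3 0.16 (edgeR adjusted p = 0.730) and Prdx5, found in mitochondria and other compartments, -0.34 (edgeR adjusted p = 0.158).

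Superoxide dismutases turn superoxide into hydrogen peroxide in different compartments, and 1 of the 3 rose (33.3%, against 13.3% of all genes). Sod3 (chr5:52363791-52371418), the extracellular enzyme that binds to the matrix, gave 40.8, 78.9, 53.8 and 51.7 CPM in WT mice and 115, 86.5, 94.9 and 115 CPM in Ucp1Δ/Δ mice. WT mouse 2 came closest to the Ucp1Δ/Δ mice without reaching them (means 56.3 ± 16.1 and 103 ± 14.2 CPM, log2FC 0.86, SE 0.20, edgeR adjusted p = 0.00626). The cytosolic Sod1 gave 2084 ± 457 and 1637 ± 356 CPM (log2FC -0.35, edgeR adjusted p = 0.266). The mitochondrial Sod2 gave 344 ± 64.9 and 348 ± 32.7 CPM, with a log2FC of 0.02 and a 95% interval from -0.36 to 0.39. Macrophage, fibroblast and endothelial marker sums all separated the same mice as Sod3 and Gpx3, and their part in these genes was not tested.

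By compartment, both genes for secreted enzymes (Gpx3 and Sod3) rose. None of the 4 genes for dedicated mitochondrial enzymes (Prdx3, Txn2, Txnrd2 and Sod2) passed edgeR's test. Nor did any of the 3 of the endoplasmic reticulum (Prdx4, Gpx7 and Gpx8). Gpx1, both cytosolic and mitochondrial, rose and is in none of these sets. Over all genes tested 21.0% were called and 13.3% were higher, so sets this small cannot show a low share. At an unadjusted p under 0.05, 0 of the mitochondrial genes and 2 of those of the endoplasmic reticulum (Prdx4 and Gpx8) were counted, and DESeq2, limma voom and limma trend called 0 of either set. Differences between compartments were not tested.

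Glutathione synthesis and recycling gave no call among 4 tested genes in edgeR, with 2 at an unadjusted p under 0.05 (Gclc and Gclm) and 1 call by limma voom (Gclm). Gclc and Gclm encode the catalytic and the modifier subunit of glutamate-cysteine ligase, the limiting step of synthesis, and their values pointed in opposite directions. Gclc had 15.3, 13.0, 14.4 and 9.12 CPM in WT mice and 17.3, 19.9, 16.3 and 21.0 CPM in Ucp1Δ/Δ mice, which did not overlap (log2FC 0.52, SE 0.22, edgeR adjusted p = 0.111). Gclm had 58.6, 38.98, 53.1 and 39.01 CPM in WT mice and 41.0, 35.8, 23.0 and 33.1 CPM in Ucp1Δ/Δ mice, which overlapped (log2FC -0.51, SE 0.21, edgeR adjusted p = 0.103). Glutathione synthetase (Gss) and glutathione reductase (Gsr) had log2FCs of 0.32 (edgeR adjusted p = 0.361) and 0.12 (edgeR adjusted p = 0.834). Slc7a11, the cystine carrier of system xc-, was below the filter, with 0, 0, 1 and 1 counts in WT mice and 2, 8, 4 and 2 counts in Ucp1Δ/Δ mice.

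None of the 5 thioredoxin genes passed edgeR's test, although Txn1 had an unadjusted p under 0.05 and was called by DESeq2. The cytosolic thioredoxin Txn1 came closest, with 142, 205, 124 and 110 CPM in WT mice and 124, 104, 79.8 and 81.1 CPM in Ucp1Δ/Δ mice (log2FC -0.58, SE 0.22, edgeR adjusted p = 0.0723), and the groups overlapped. The mitochondrial Txn2 had a log2FC of 0.27 (edgeR adjusted p = 0.302). The reductases Txnrd1 (cytosolic) and Txnrd2 (mitochondrial) had log2FCs of 0.34 (edgeR adjusted p = 0.294) and -0.27 (edgeR adjusted p = 0.374). Txnip, an inhibitor of thioredoxin that responds to glucose, had 0.14 (edgeR adjusted p = 0.602).

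Transcripts of the NRF2 switch itself passed none of the tests run with edgeR, DESeq2 and limma, and 0 of 2 had an unadjusted p under 0.05. Nfe2l2 gave 56.8 ± 18.2 and 70.8 ± 11.6 CPM (log2FC 0.32, edgeR adjusted p = 0.375) and Keap1 gave 74.2 ± 12.1 and 80.8 ± 4.55 CPM (log2FC 0.12, edgeR adjusted p = 0.664). Nqo1, a quinone reductase often read as an NRF2 target, was barely detected, at 2, 1, 1 and 0 counts in WT mice and 2, 4, 1 and 0 counts in Ucp1Δ/Δ mice. Metallothioneins bind zinc and copper and scavenge radicals. Mt2 had 388, 263, 194 and 168 CPM in WT mice and 583, 551, 211 and 364 CPM in Ucp1Δ/Δ mice, which overlapped (log2FC 0.76, SE 0.30, edgeR adjusted p = 0.0904). Mt1, its neighbour on chromosome 8, had a log2FC of -0.24 (edgeR adjusted p = 0.461). Stretches of 75 bases shared with other annotated transcripts made up 30.3% of those of Mt2, 29.2% of Gstp1, 16.2% of Sod2, 13.9% of Prdx5 and 13.8% of Txnip. This leaves the counts of Gstp1 and Sod2 less certain. Mt2, Prdx5 and Txnip share theirs with genes on the other strand (Gm45774, Trmt112 and Gm15441). Their counts are less certain if counting ignored strand, which was not given in the sources used here. Over all 26 uncalled genes the 95% intervals reached between 0.344 and 0.831 log2 units on either side of the estimate, and 7 had an unadjusted p under 0.05.

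A wider list of 121 genes of the same pathways was described beside the 39. Of its 94 tested genes 16 were higher and 11 lower in Ucp1Δ/Δ mice, 28.7% against 21.0% of all genes, with a median log2FC of -0.11. Each direction includes 1 gene, Hpgds and Mgst2, that reached the filter only through the genotype where it was high. When libraries were scaled by total counts alone, 19 were higher and 7 lower, beside 1478 higher and 404 lower of all genes (1191 and 681 with the main scaling).

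Within the wider list, the largest share of calls was among NRF2 partners and further NRF2 targets, with 6 higher and 3 lower of 17 tested. These were 35.3% and 17.6% of the group, against 13.3% and 7.63% of all genes tested. Mafk, a small MAF protein that pairs with NRF2, rose from 5.75 ± 1.56 to 32.7 ± 10.8 CPM (log2FC 2.51, SE 0.29, edgeR adjusted p = 2.11e-05). Ephx1, the microsomal epoxide hydrolase, rose with a log2FC of 2.44 (SE 0.31, edgeR adjusted p = 5.17e-05), and Ftl1, the ferritin light chain, with 1.23 (SE 0.20, edgeR adjusted p = 4.39e-04). Tkt and Taldo1, the transketolase and transaldolase of the non-oxidative pentose phosphate pathway, fell by 1.58 and 1.29 on the log2 scale (SE 0.24 and 0.17, edgeR adjusted p = 1.94e-04 and 7.18e-05). Tkt went from 1950 ± 504 to 650 ± 198 CPM.

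NADPH is the reductant of both thiol systems. Of 11 tested genes listed for its supply, 3 were higher and 1 lower. These were 27.3% and 9.09% of the group, against 13.3% and 7.63% of all genes tested, so the lower share was near that of all genes. Idh2, the mitochondrial NADP-dependent isocitrate dehydrogenase, gave 183, 187, 133 and 140 CPM in WT mice and 410, 466, 461 and 418 CPM in Ucp1Δ/Δ mice, far apart (log2FC 1.45, SE 0.17, edgeR adjusted p = 2.20e-05). Mthfd2, a mitochondrial folate enzyme, rose with a log2FC of 1.91 (SE 0.27, edgeR adjusted p = 1.17e-04). Me1, the cytosolic malic enzyme that supplies NADPH for lipogenesis, fell by 1.13 (SE 0.20, edgeR adjusted p = 8.41e-04). G6pdx, the first enzyme of the pentose phosphate pathway, named after its values were seen, was the third to rise, with a log2FC of 0.70 (SE 0.19, edgeR adjusted p = 0.0142).

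Catalase (Cat), the peroxisomal enzyme that decomposes hydrogen peroxide, fell from 536 ± 183 to 250 ± 59.8 CPM (log2FC -1.10, SE 0.23, edgeR adjusted p = 0.00280). The mice ran 432, 803, 503 and 405 CPM in WT and 338, 204, 231 and 227 CPM in Ucp1Δ/Δ, without overlap. Of the 7 tested genes of other peroxide defence, 3 were lower (42.9%, against 7.63% of all genes) and none higher. Of 10 other peroxidases and transferases tested, 1 rose and 1 fell (10% each, against 13.3% and 7.63% of all genes). Hpgds, the glutathione-dependent prostaglandin D synthase of immune cells, rose with a log2FC of 3.04 (SE 0.45, edgeR adjusted p = 1.72e-04), and Mgst2, a microsomal transferase, fell by 1.99 (SE 0.38, edgeR adjusted p = 0.00137). Hpgds reached the filter through Ucp1Δ/Δ mice alone and Mgst2 through WT mice alone, so their calls add little. In glutathione turnover and transport 4 of 14 were higher (28.6%, against 13.3% of all genes) and 1 lower (7.14%). The lower gene was Oplah, the 5-oxoprolinase that returns glutamate to synthesis (log2FC -0.75, SE 0.19, edgeR adjusted p = 0.0106). Glutaredoxins and repair enzymes had 1 higher and 2 lower of 19 (15.8% called), and selenoproteins 1 higher of 14 (7.14%). Both shares were under the 21.0% called of all genes. Of 2 tested metal-handling genes 0 passed the test with edgeR, DESeq2 or limma, or had an unadjusted p under 0.05.

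**Figure D4:**
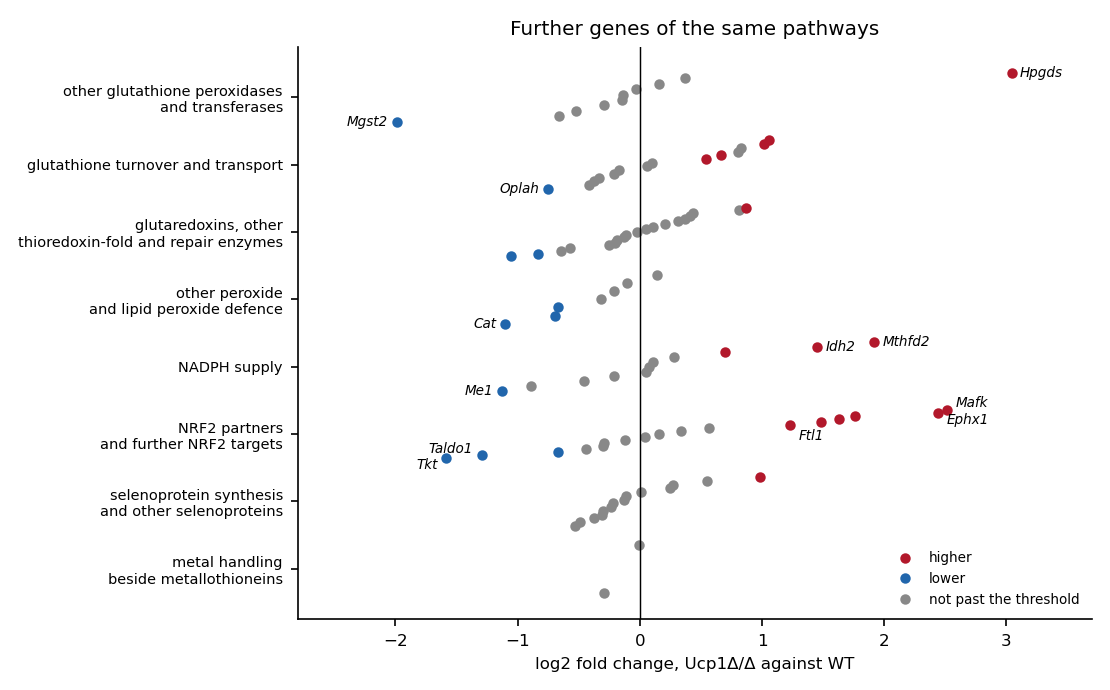
Log2 fold change, Ucp1Δ/Δ against WT (x axis), of the 94 tested genes of the wider list, 1 point per gene in 8 pathway groups (y axis), with the 12 named genes labelled. Points are spread within each row only for legibility, and red and blue mark the 16 higher and 11 lower genes.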

How the data were processed

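BAT of 4 WT and 4 Ucp1Δ/Δ mice was profiled by single-end digital mRNA-seq, and mice were grouped by the genotype and number in the labels. The authors deposited whole-number read counts per Ensembl gene without normalization, and a table of log2 values, each equal to the log2 of the count over 1 factor per mouse, plus 1. For alignment and counting the study's methods name bbduk, STAR and HTseq-counts with mm10, whereas the submitters' processing notes list Trimmomatic, HISAT2 and DESeq2 with GRCm38. Which made the tables was not settled, and whether counting used strand was not given in the sources used here. The study's text and the labels differ on age, and the labels' 10 weeks is printed.

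Symbols matched 30934 of 31053 identifiers. Positions and shared stretches of 75 bases came from GENCODE M21 (GRCm38), and promoters from RefSeq (GRCm38.p6). In R 4.3.3, the default filterByExpr filter and TMM scaling came before a test of genotype alone in edgeR 4.0.16 (quasi-likelihood test, Benjamini-Hochberg adjustment over 8930 genes). An SE is the absolute log2FC divided by the root of F. CPM rest on library sizes after TMM, and log2 CPM add a prior count of 2. The counts, 2017697 to 3115956 per mouse, limit what low genes can show. Alternatives used DESeq2 1.42.0, limma 3.58.1 (voom, and trend on the deposited log2 values), other scalings, filters and thresholds, the replicate number as a block, and each mouse left out. The code was tested on simulated counts. No pair of libraries agreed within counting noise.

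The members and lists were chosen with earlier results of these data known. Every called antioxidant gene was named, uncalled ones with log2FC and adjusted p by role, those under the filter with counts, and of the wider list up to 6 genes in each direction with the smallest adjusted p. Markers of red blood cells (2757 to 6948 CPM in sum) and Schwann cells (25.5 to 48.2 CPM), checked with the other lists, had no gene called by edgeR.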

Additional observations from a re-analysis of the deposited data

Results flagged for a closer look

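Among the 36 tested antioxidant genes, 7 of 72 groups of 4 mice held 1 mouse whose log2 CPM lay apart from the other 3 by a larger part of the whole range than Dixon's 95% critical value, where chance gives about 3.6. Gpx3 in Ucp1Δ/Δ mouse 2 was low, at 12.5 against 12.8 to 12.9 in the other mice of its genotype (gap over range 0.872). Gpx8 in Ucp1Δ/Δ mouse 1 was high, at 5.23 against 4.44 to 4.53 (0.881). Gsta3 in WT mouse 3 was low, at 0.852 against 2.28 to 2.43 (0.904), and Gstt1 in WT mouse 1 was low, at 3.65 against 4.33 to 4.40 (0.916). Sod1 in WT mouse 4 was low, at 10.5 against 11.1 to 11.2 (0.863). WT mouse 2 stood low in both Nfe2l2, at 4.93 against 6.03 to 6.11 (0.929), and Txnrd1, at 4.45 against 5.33 to 5.48 (0.857). The remaining 65 groups held no such mouse.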

How the results depend on the processing

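Gpx1, Gpx3, Gsta4 and Gstz1, 4 of the 10 called antioxidant genes, were called in every alternative fit run, and the other 6 lost their call in 1 or more without changing direction. Leaving out each mouse in turn gave 3 to 8 higher and 2 to 5 lower antioxidant genes, 11 to 16 higher and 7 to 12 lower genes of the wider list, and 945 to 1304 higher and 400 to 851 lower of all genes. Higher antioxidant genes numbered 3 without WT mouse 3 and 5 without Ucp1Δ/Δ mouse 1 or 2, lower ones 5 without WT mouse 4 and 4 without Ucp1Δ/Δ mouse 1. Lower genes of the wider list numbered 7 without WT mouse 3 or Ucp1Δ/Δ mouse 4, and lower genes of all 400 without Ucp1Δ/Δ mouse 2. In edgeR's test, Srxn1 lost its call without WT mouse 3 (adjusted p = 0.0539). Gstm2 lost it without WT mouse 3 or 4 or Ucp1Δ/Δ mouse 1, 2 or 3 (0.0567 to 0.0816), Gstt1 without WT mouse 1 or 3 or Ucp1Δ/Δ mouse 2, 3 or 4 (0.0652 to 0.114) and with DESeq2 (0.0577). Prdx6 lost it without WT mouse 1, 3 or 4 or Ucp1Δ/Δ mouse 1 or 4 (0.0684 to 0.131), with limma trend (0.0510) and under a filter of 1 count in any mouse (0.0774). Gsta3 lost it without WT mouse 1, 3 or 4 or Ucp1Δ/Δ mouse 1 or 2 (0.0524 to 0.154), with DESeq2 (0.0598), voom (0.0662) and limma trend (0.116). Of the 26 uncalled genes 19 were called under none and 7 gained a call in 1 or more, which were Gpx8 without WT mouse 4 (0.0374) or Ucp1Δ/Δ mouse 1 (0.0260), Txn1 without the same mice (0.0281 and 0.0475), Gstm1 and Mgst1 without WT mouse 4 (0.0249 and 0.0491), Mt2 without WT mouse 1 (0.0305) or Ucp1Δ/Δ mouse 3 (0.0181), Gclm with voom (0.0283) and Prdx4 with total counts alone (0.0386). Gstm1 was also called with voom (0.0379) and total counts alone (0.0361), Mt2 with total counts alone (0.0493), Txn1 with DESeq2 (0.0431), and Gpx8, Mgst1, Txn1 and Mt2 under a filter of 1 count in any mouse (0.0348, 0.0131, 0.0255 and 0.00502). Without the 4 mice highest in skeletal muscle markers, which left 2 mice a genotype, the counts were 2 higher antioxidant genes, 8 higher and 5 lower of the wider list, and 760 higher and 265 lower of all genes, and Sod3 (0.116), Srxn1 (0.0794), Gstm2 (0.0800), Gstt1 (0.404), Prdx6 (0.126), Gsta3 (0.0504), Me1 (0.0806) and Mgst2 (0.0901) lost their calls. Total counts alone, which moved the median log2FC of all genes to 0.13, gave 7 lower genes of the wider list and 404 lower of all genes. At least 1 count in any mouse gave 5 lower antioxidant genes. At least 10 counts in every mouse, with 6928 genes tested, gave 8 higher genes of the wider list and 746 higher and 449 lower of all genes. A log2FC beyond 1 gave 2 higher antioxidant genes, 6 lower genes of the wider list and 227 lower of all genes. Direction turned for 4 uncalled genes. Sod2 had log2FCs of -0.021 with DESeq2, -0.0045 with limma trend, -0.0018 under the size factors of DESeq2, -0.0093 under a filter of 1 count in any mouse and -0.12 to 0.080 leaving out each mouse. Gsr had -0.24 and Prdx3 -0.0057 without the 4 mice above, and -0.017 to 0.35 and -0.092 to 0.40 leaving out each mouse, and Keap1 had -6.2e-05 to 0.17. Mice of the same number correlated at -0.196 to 0.304 in their deviations from the group means. Mice of different number were not compared, so these values cannot decide whether the numbers pair the mice. With the replicate number as a block, antioxidant genes were 8 higher and 3 lower, and Prdx6 lost its call (0.0560) while Txn1 (0.0469) and Mt2 (0.0201) gained one. Other causes of these changes were not tested.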

Other observations

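Nnt, the mitochondrial transhydrogenase that makes NADPH, had 1, 1, 1 and 0 counts in WT mice and 0, 1, 2 and 0 counts in Ucp1Δ/Δ mice and was not tested. C57BL/6J mice are known to carry a loss-of-function deletion in this gene.

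Several further genes of the wider list, named after their values were seen, moved in edgeR's test. Hmox1, the haem oxygenase that NRF2 induces and BACH1 represses, had 8.16, 6.27, 5.01 and 2.03 CPM in WT mice and 22.6, 23.3, 6.69 and 19.7 CPM in Ucp1Δ/Δ mice, with Ucp1Δ/Δ mouse 3 below 1 WT mouse (log2FC 1.76, SE 0.40, edgeR adjusted p = 0.00467). Maff and Akr1b8, a small MAF protein and an aldo-keto reductase, had log2FCs of 1.63 and 1.48 (SE 0.45 and 0.34, edgeR adjusted p = 0.0161 and 0.00490). Blvrb, a biliverdin reductase, went the other way. It had 46.4, 48.8, 44.4 and 43.6 CPM in WT mice and 33.3, 29.9, 31.8 and 20.2 CPM in Ucp1Δ/Δ mice, without overlap (log2FC -0.67, SE 0.19, edgeR adjusted p = 0.0180). The amino acid carriers Slc3a2, Slc1a4 and Slc1a5 were each higher, with log2FCs of 0.67, 1.06 and 0.54 (edgeR adjusted p = 0.0403, 0.0303 and 0.0439). Slc3a2 is the partner chain of Slc7a11. Ccs, the copper chaperone of SOD1, fell by 0.67 on the log2 scale (SE 0.23, edgeR adjusted p = 0.0464). The genotypes overlapped in CPM for Maff, Slc3a2 and Ccs, and not for Akr1b8, Slc1a4 and Slc1a5. Whether the calls of these further genes held under the alternative fits was not examined gene by gene. The macrophage marker sums also differed between the genotypes, and the part of macrophages in these genes was not tested.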
